A study of Mus musculus with 15 samples.

Results

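The enzymes that build fatty acids from acetyl-CoA and desaturate them, together with Srebf1, the transcription factor gene that drives many of them, were followed in 3T3-L1 cells on day 2 of adipocyte differentiation. The group was defined by name and held 10 of the 26301 genes with deposited counts: Srebf1, Acly, Acaca, Fasn, Me1, Scd1, Scd2, Elovl6, Fads1 and Fads2. The rule used names only.

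The cells used, 3T3-L1, are mouse preadipocytes that fill with fat when insulin (1.67 uM), dexamethasone (1 uM) and IBMX (115 ug/mL) are added to the confluent culture, as was done for every group here. Poly(A) RNA was sequenced in 15 libraries, 3 for each of 5 stable lines made with pMXs-based retroviruses and antibiotic selection. Control cells carried the control vector (shEmpty in the labels, sh-Empty below) and JMJD1A-KD cells a hairpin against Jmjd1a (shJmjd1a, sh-Jmjd1a below). The other 3 groups carried the same hairpin plus a construct encoding LacZ, hairpin-resistant wild-type JMJD1A (WT) or a JMJD1A defective in iron coordination (Mut), named here LacZ, JMJD1A(WT) and JMJD1A(H1122A). JMJD1A, the product of Kdm3a, removes methyl groups from lysine 9 of histone H3 and uses iron to do so. Each group is a stable line obtained by antibiotic selection, and the labels do not say that the replicates of a line were separate cultures, so the p-values measure only the spread between these samples.

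Fat cells make fatty acids in the cytosol. ATP citrate lyase splits exported citrate into acetyl-CoA, acetyl-CoA carboxylase turns this into malonyl-CoA, and fatty acid synthase joins the units into palmitate with NADPH that malic enzyme and other dehydrogenases supply. ELOVL6 lengthens palmitate to stearate, stearoyl-CoA desaturases place the first double bond, and the desaturases of Fads1 and Fads2 add double bonds nearer the carboxyl end of polyunsaturated chains. SREBP-1, encoded by Srebf1, is known as an insulin-responsive activator of these genes.

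A library held between 11437058 and 25523148 counts (median 12916162, highest in JMJD1A(WT) replicate 3). The chi-square divided by its degrees of freedom was 2.06 to 5.32 for the 15 pairs of libraries within a group, so that no pair was alike to within counting noise. Levels are given as CPM, counts relative to the library total, scaled by TMM factors over the 15 libraries, and differences as log2 fold changes with their standard error (SE). All tests are the quasi-likelihood F test of edgeR, and adjusted p is its Benjamini-Hochberg value over all genes tested, with 0.05 as the threshold for a call. The targeted gene followed the labels. Kdm3a stood at 168.8, 171.4 and 182.7 CPM in sh-Empty cells and at 128.3, 127.3 and 137.7 CPM in sh-Jmjd1a cells, a fall of 0.42 on the log2 scale (SE 0.0484, edgeR adjusted p = 2.91e-08). It was at 116.9 to 122.2 CPM with LacZ, 1650 to 1777 CPM with JMJD1A(WT) and 2123 to 2303 CPM with JMJD1A(H1122A), where transcripts of the introduced construct cannot be told apart from those of the endogenous gene.

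The promoter sequences of the regulator and of 2 enzymes that fell with it on knockdown are shown because these genes changed together. RefSeq promoter windows (assembly GRCm38.p6, 300 bases each, 250 of them before the start site) were matched for 7 of the 10 genes, with 10 windows in all, namely Srebf1, Acly, Acaca, Fasn, Me1, Elovl6 and Fads2. The 250 bases before the start site are given 5′ to 3′ on the gene's strand, all 3 on the minus strand. They lie at chr11:60210472-60210721 for the most downstream of the 3 Srebf1 start sites, chr11:100528001-100528250 for Acly and chr11:120824548-120824797 for Fasn. Capitals mark the letters CCAAT (the NF-Y box) and GGGCGG (the Sp1 box), searched on both strands.
Srebf1: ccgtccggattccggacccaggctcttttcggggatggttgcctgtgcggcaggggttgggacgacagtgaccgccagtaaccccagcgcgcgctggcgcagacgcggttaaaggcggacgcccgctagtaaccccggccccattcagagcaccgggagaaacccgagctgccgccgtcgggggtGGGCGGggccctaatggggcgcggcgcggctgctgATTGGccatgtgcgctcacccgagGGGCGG
Acly: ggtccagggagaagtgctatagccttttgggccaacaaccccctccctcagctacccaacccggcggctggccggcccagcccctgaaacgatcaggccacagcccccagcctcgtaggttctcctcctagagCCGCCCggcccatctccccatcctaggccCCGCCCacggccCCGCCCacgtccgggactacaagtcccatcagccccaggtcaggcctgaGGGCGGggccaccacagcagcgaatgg
Fasn: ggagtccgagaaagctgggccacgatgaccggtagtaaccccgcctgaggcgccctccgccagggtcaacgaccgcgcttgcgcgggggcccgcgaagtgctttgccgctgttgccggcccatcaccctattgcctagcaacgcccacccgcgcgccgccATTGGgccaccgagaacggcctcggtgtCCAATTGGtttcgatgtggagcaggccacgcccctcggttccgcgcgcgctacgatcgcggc

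The Srebf1 window shown held an NF-Y box that begins 30 bases before the start site and Sp1 boxes that begin 65 and 6 bases before it. Another Srebf1 window held 1 NF-Y box and no Sp1 box, and the remaining one 3 Sp1 boxes and no NF-Y box. In Acly 4 Sp1 boxes began 117, 88, 76 and 27 bases before the start. The Acly window also held 1 NF-Y box past the start site, outside the 250 bases shown. In Fasn 3 NF-Y boxes began 90, 62 and 59 bases before it, and the last 2 overlap. The E-box CACGTG and the SREBP element TCACNCCAC, also searched on both strands, were in none of the 10 windows. The windows of Elovl6, which also fell on knockdown, and of Acaca held none of the 4 motifs. The Acaca window lies at chr11:84195188-84195487, and whether it holds the main start site of that gene was not tested. One Me1 window held 4 Sp1 boxes and the other 1 NF-Y box, and the Fads2 window held 1 Sp1 box. Among all 32851 promoter windows of this length, 37.4% held CCAAT, 35.7% held GGGCGG, 7.15% held CACGTG and 1.24% held TCACNCCAC. Such matches describe letters only, and the counts per gene do not separate the start sites of Srebf1.

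The first comparison asked how knockdown of JMJD1A changed these genes in differentiating cells. In sh-Jmjd1a cells 8 of the 10 genes were lower than in sh-Empty cells, 1 was higher (Fads1) and 1 was not called (Fads2). Over all 12272 genes tested, 23.9% were lower and 22.3% were higher. The median log2 fold change of the 10 genes was -0.63, beside -0.003 over all genes. The 3 libraries of one group did not overlap those of the other for any of the 10 genes, whereas 53.2% of all genes tested had groups that did not overlap. The 8 decreases ranged from 0.14 to 1.61 on the log2 scale, with Scd1 and Acly at the large end and Acaca and Me1 at the small end. Adipocyte markers moved with them, since 9 of the 9 tested were lower (median log2 fold change -2.36) and their summed level was 2635 to 2772 CPM in sh-Jmjd1a against 5129 to 5210 CPM in sh-Empty libraries. In bulk RNA, fewer cells that had begun to fill with fat and less lipogenic RNA per cell cannot be told apart, and the part of differentiation in the changes of the 10 genes was not tested.

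**Figure D1:**
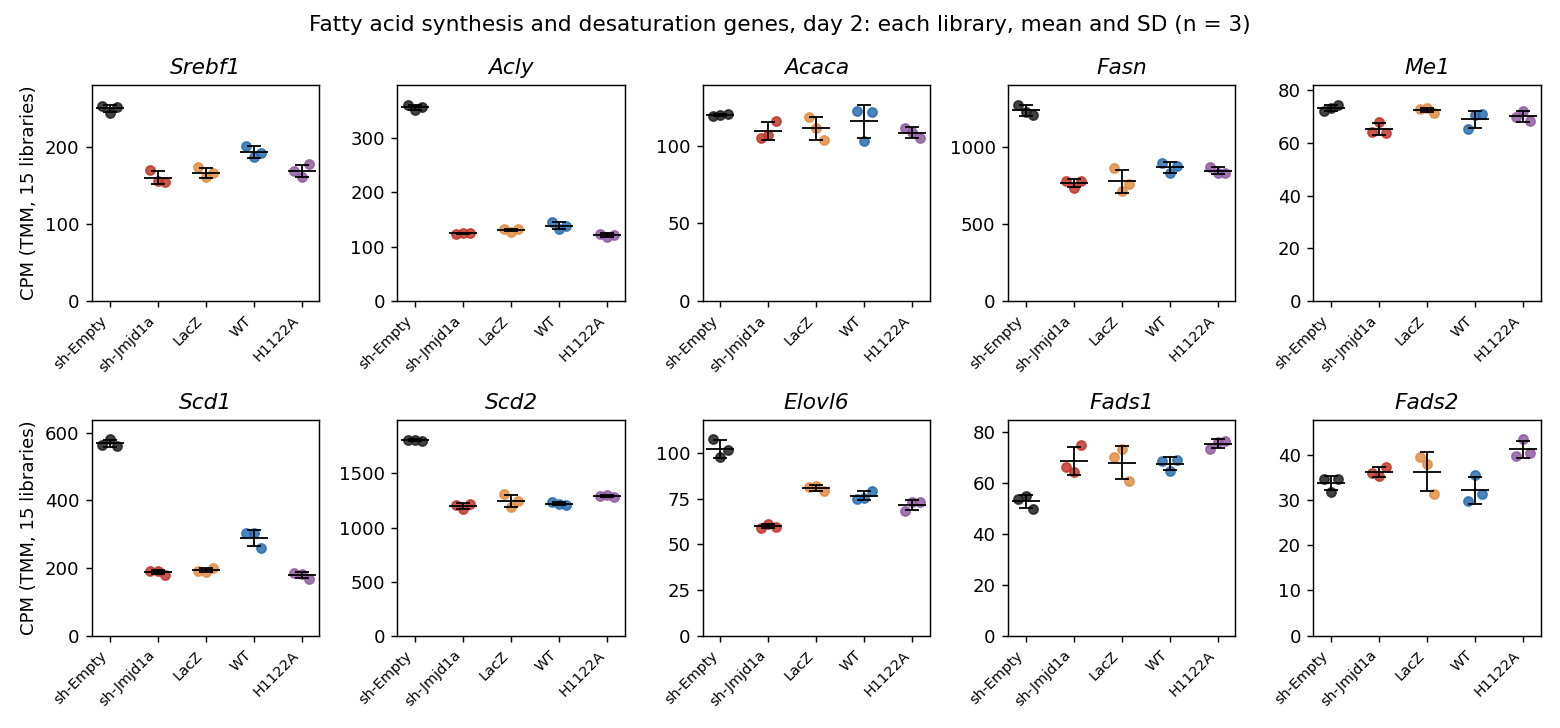
Level of each gene in each of the 15 libraries, in CPM scaled by TMM factors over all libraries (vertical axis, from 0), by group (horizontal axis), with points for libraries and bars for the mean and SD of 3. Scd1, for example, stood at 561.8 to 580.8 CPM in sh-Empty, 180.1 to 192.1 in sh-Jmjd1a, 189.5 to 199.5 with LacZ, 260.4 to 302.5 with JMJD1A(WT) and 168.5 to 185.3 with JMJD1A(H1122A).

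Srebf1 (Entrez Gene 20787; chromosome 11, 60012591 to 60036083, minus strand, NCBIM37, the assembly of mm9) was read at 252.8, 243.9 and 251.7 CPM in sh-Empty cells and at 169.4, 155.4 and 153.9 CPM in sh-Jmjd1a cells. The groups did not overlap, and the fall was 0.66 on the log2 scale (SE 0.0454, edgeR adjusted p = 1.1e-12). The exons of Srebf1 share 1.93% of their bases with Rai1 on the opposite strand, and the strand setting of the counting was not given in the sources used here, so reads there could belong to either gene.

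Of the enzymes that supply the precursors, Acly, the source of cytosolic acetyl-CoA (Entrez Gene 104112; chromosome 11, 100337667 to 100389314, minus strand), stood at 361.1, 350.7 and 355.9 CPM in sh-Empty and at 123.9, 124.4 and 125.8 CPM in sh-Jmjd1a. Every control library was well above every knockdown library. Acly fell by 1.52 on the log2 scale (SE 0.0422, edgeR adjusted p = 1.77e-21), which is 2.88-fold. Me1, the cytosolic malic enzyme that yields NADPH (Entrez Gene 17436; chromosome 9, 86474970 to 86589947, minus strand), moved far less, from 72.24, 73.28 and 74.54 CPM to 64.26, 67.89 and 63.81 CPM. The fall of 0.18 passed the test (SE 0.0582, edgeR adjusted p = 0.0125), but without sh-Empty replicate 3 the adjusted p was 0.0555.

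The 2 enzymes of the synthesis itself differed in size of change. Fasn, fatty acid synthase (Entrez Gene 14104; chromosome 11, 120667254 to 120685492, minus strand), stood at 1277, 1231 and 1211 CPM in sh-Empty and at 780.0, 735.3 and 782.6 CPM in sh-Jmjd1a. The fall was 0.71 on the log2 scale (SE 0.0374, edgeR adjusted p = 3.25e-15), with no overlap between the groups. Acaca, acetyl-CoA carboxylase 1, the committed step (Entrez Gene 107476; chromosome 11, 83943174 to 84215153, plus strand), was at 119.4, 120.0 and 120.3 CPM in control libraries and at 105.2, 106.8 and 115.8 CPM in knockdown libraries. Its fall of 0.14 (SE 0.0508, edgeR adjusted p = 0.0211) was not called by DESeq2 (adjusted p = 0.0589). It was also lost without sh-Empty replicate 1, 2 or 3 (adjusted p = 0.0587, 0.0657 and 0.0666) and without sh-Jmjd1a replicate 1 or 2 (0.102 and 0.0799), all in edgeR.

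Elovl6, the elongase of saturated and monounsaturated chains (Entrez Gene 170439; chromosome 3, 129235304 to 129341413, plus strand), fell from 107.4, 97.54 and 101.4 CPM to 58.89, 61.14 and 59.48 CPM. The groups were far apart, with a log2 fold change of -0.78 (SE 0.0574, edgeR adjusted p = 4.05e-12).

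The 4 desaturase genes went different ways. Scd1, a stearoyl-CoA desaturase typical of mature fat cells (Entrez Gene 20249; chromosome 19, 44468941 to 44482199, minus strand), stood at 563.2, 580.8 and 561.8 CPM in sh-Empty and at 192.0, 192.1 and 180.1 CPM in sh-Jmjd1a. Its fall of 1.61 on the log2 scale (SE 0.0415, edgeR adjusted p = 2.96e-22) was the largest of the 10. Its paralogue Scd2 (Entrez Gene 20250; chromosome 19, 44368166 to 44381354, plus strand) went from 1811, 1813 and 1796 CPM to 1210, 1168 and 1220 CPM, a fall of 0.60 (SE 0.0343, edgeR adjusted p = 1.54e-14).

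Fads1, the delta-5 desaturase of polyunsaturated chains (Entrez Gene 76267; chromosome 19, 10257378 to 10271360, plus strand), rose from 53.81, 54.64 and 49.59 CPM to 66.34, 64.19 and 74.64 CPM. It was the only one of the 10 called higher, by 0.37 on the log2 scale (SE 0.0678, edgeR adjusted p = 4.54e-05). Fads2, the delta-6 desaturase (Entrez Gene 56473; chromosome 19, 10138654 to 10175993, minus strand), stood at 34.60, 31.83 and 34.55 CPM in control and at 35.90, 35.27 and 37.36 CPM in knockdown libraries. The difference of 0.09 had a 95% interval from -0.07 to 0.25 and was not called (edgeR adjusted p = 0.351).

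The levels of different genes can be compared only per length of exon. In sh-Empty cells Scd2 was the highest at 331.3 CPM per kb, followed by Fasn (125.9), Scd1 (117.6), Acly (67.4) and Srebf1 (44.3), all as CPM per kb. The lowest 5 were Fads2 (22.3), Me1 (20.5), Elovl6 (17.2), Fads1 (15.2) and Acaca (11.8) on the same scale. In sh-Jmjd1a cells Acly was at 23.6 ± 0.190 CPM per kb (SD, n = 3), level with Fads2 at 24.0 ± 0.710, and these neighbours did not differ beyond their spread. Elovl6 was then the lowest at 10.1 ± 0.196, below Acaca at 10.7 ± 0.559 CPM per kb. The exon model of Fads2 is only 1.51 kb long, so its level per kb depends on how complete that model is.

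Scd1 and Scd2 catalyse the same reaction, so their balance was also followed. Per kb of exon, Scd1 made up 25.9%, 26.5% and 26.0% of the sum of both in sh-Empty cells and 15.2%, 15.6% and 14.3% in sh-Jmjd1a cells. In LacZ libraries the share was 14.1%, 15.2% and 15.3%, in JMJD1A(WT) libraries 21.6%, 21.9% and 19.6%, and in JMJD1A(H1122A) libraries 13.9%, 13.7% and 12.9%. The sh-Empty libraries thus lay above all others, the JMJD1A(WT) libraries came next, and the other 3 groups lay below both. Of the 150-base windows in Scd1 transcripts, 0.768% were identical to Scd3 and none to Scd2, so the 2 genes could be counted apart.

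**Figure D2:**
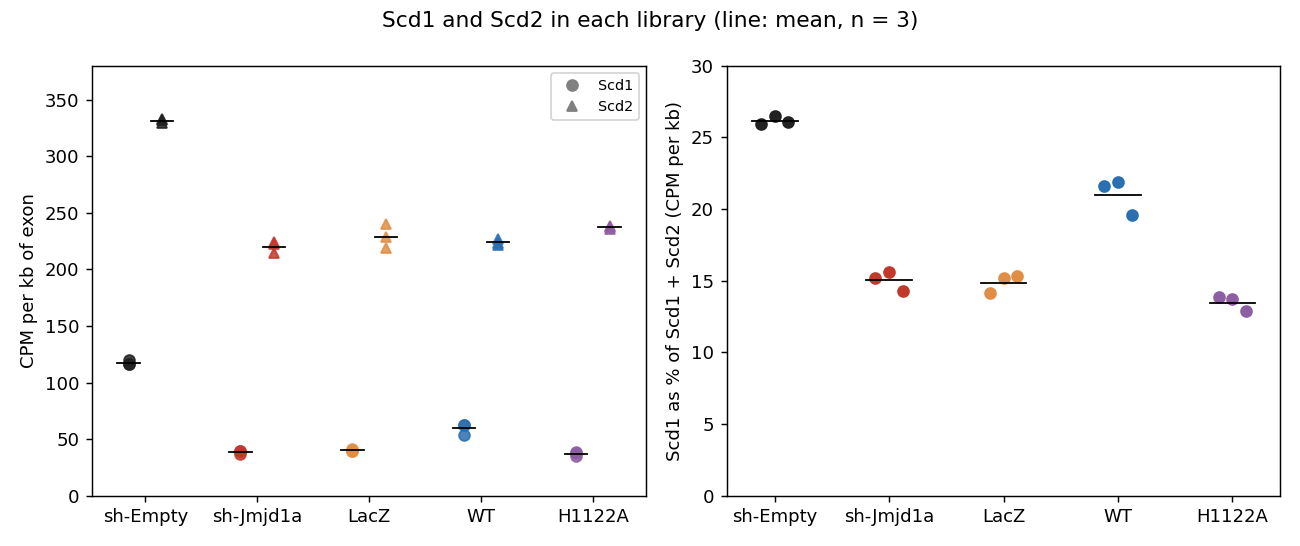
Left, Scd1 (circles) and Scd2 (triangles) in CPM per kb of exon in each library by group, with lines for the mean of 3. Right, Scd1 as a percentage of the sum of both; the share was 25.9% to 26.5% in sh-Empty libraries and 14.3% to 15.6% in sh-Jmjd1a libraries, and its mean was 14.9% with LacZ, 21.0% with JMJD1A(WT) and 13.5% with JMJD1A(H1122A).

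The second comparison asked which genes responded when wild-type JMJD1A was put back. With JMJD1A(WT) 2 of the 10 genes were higher than with LacZ, Srebf1 and Scd1, and 0 were lower. Among all 12557 genes tested in the rescue libraries 4.98% were higher. At an unadjusted p under 0.05 edgeR had 3 of the 10 higher and 1 lower. That threshold is looser than that of the share, and no share of all genes is given for it. DESeq2 called 3 higher and 0 lower. The median log2 fold change of the 10 genes was 0.03. All 9 adipocyte markers tested were higher (median 0.87), with summed levels of 3811 to 4179 CPM against 3341 to 3424 CPM with LacZ, and their part in the 2 rises was not tested.

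Srebf1 was at 172.8, 160.0 and 165.8 CPM with LacZ and at 201.1, 186.7 and 191.1 CPM with JMJD1A(WT). The groups did not overlap, and Scd1 was separated more widely, with 190.5, 189.5 and 199.5 CPM against 302.5, 302.2 and 260.4 CPM. Scd1 was higher by 0.57 on the log2 scale (SE 0.0483, edgeR adjusted p = 1.37e-11), or 1.49-fold. The rise of Srebf1 was 1.16-fold.

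Fasn was at 862.0, 716.3 and 758.7 CPM with LacZ and at 897.4, 830.4 and 877.3 CPM with JMJD1A(WT), and the groups overlapped through LacZ replicate 1. Its difference of 0.16 on the log2 scale was not called (edgeR adjusted p = 0.0869), but was called by DESeq2 (adjusted p = 0.0405) and, as 0.23, without LacZ replicate 1 (edgeR adjusted p = 1.2e-05). Fasn was also called without a filter, without robust dispersions and in the fit of all 15 libraries (edgeR adjusted p = 0.000384, 0.018 and 0.0367). Acly, which had fallen so far on knockdown, read 132.2, 127.4 and 131.7 CPM with LacZ and 145.7, 132.1 and 137.4 CPM with JMJD1A(WT), groups that overlap slightly. Its difference of 0.09 had a 95% interval from -0.01 to 0.18 (edgeR adjusted p = 0.317).

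Scd2 stood at 1306, 1192 and 1244 CPM with LacZ and at 1237, 1217 and 1206 CPM with JMJD1A(WT), a difference of -0.03 with an interval from -0.10 to 0.04 that was not called (edgeR adjusted p = 0.666). The elongase Elovl6 was at 81.27, 81.87 and 78.97 CPM with LacZ and at 74.70, 75.39 and 79.37 CPM with JMJD1A(WT). Its difference of -0.07, like those of Acaca (0.06), Me1 (-0.07) and Fads1 (-0.01), was not called. Fads2 differed by -0.18 and was not called either (edgeR adjusted p = 0.191), while without LacZ replicate 3 the value was -0.28 and passed (edgeR adjusted p = 0.0414).

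**Figure D3:**
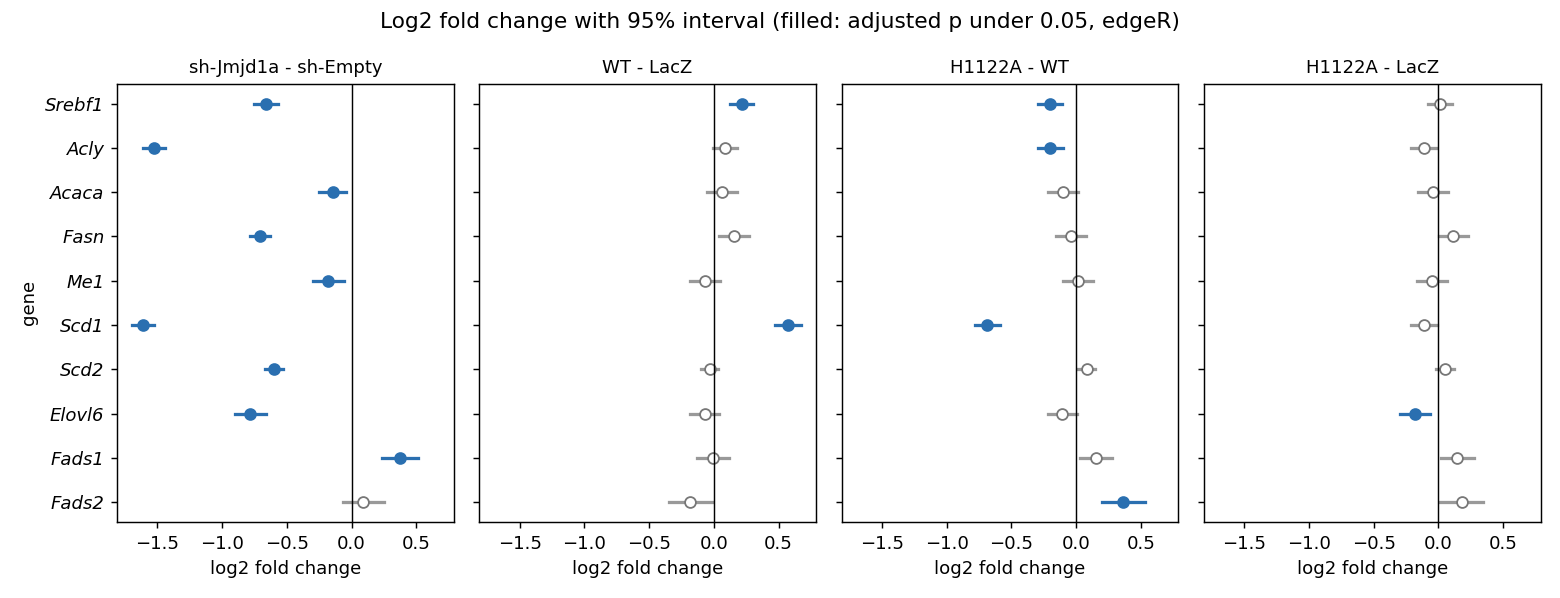
Log2 fold change of the 10 genes (horizontal axis) with its 95% interval in 4 comparisons, filled blue where the edgeR adjusted p was under 0.05. On knockdown 9 of the 10 were called, with JMJD1A(WT) against LacZ 2, with JMJD1A(H1122A) against JMJD1A(WT) 4, and with JMJD1A(H1122A) against LacZ 1.

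The third comparison set the iron-coordination mutant against wild-type JMJD1A. In mutant cells 3 of the 10 genes were below their JMJD1A(WT) level, Srebf1, Acly and Scd1, and 1 was higher, Fads2. Over all genes tested 11.7% were lower and 12.1% were higher. The 9 adipocyte markers tested were lower too, at a summed 2601 to 2700 CPM, and their part was not tested. Kdm3a itself was higher with the mutant than with the wild type, by 0.38 on the log2 scale (edgeR adjusted p = 3.94e-12).

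Scd1 stood at 185.3, 183.2 and 168.5 CPM with JMJD1A(H1122A), below every JMJD1A(WT) library, and was lower by 0.68 on the log2 scale (SE 0.0491, edgeR adjusted p = 5.75e-14). Srebf1 read 167.8, 161.0 and 177.0 CPM with the mutant and was lower by 0.20 (SE 0.0453, edgeR adjusted p = 0.000693). Acly read 123.7, 117.6 and 121.5 CPM and was lower by 0.20 as well (SE 0.0478, edgeR adjusted p = 0.00136). In each of these genes the mutant and wild-type libraries did not overlap. Separation of this kind is common with 3 libraries a group, since on knockdown 53.2% of all genes tested showed it. The share over all genes is not given for this contrast, so the lack of overlap here and below only describes the libraries.

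Fads2 was at 39.65, 43.37 and 40.39 CPM with JMJD1A(H1122A) and at 29.75, 35.41 and 31.21 CPM with JMJD1A(WT). It was higher with the mutant by 0.36 on the log2 scale (SE 0.0823, edgeR adjusted p = 0.000733), again without overlap. Fads1 (73.39, 76.10 and 76.53 CPM against 68.72, 64.61 and 69.08 CPM) and Scd2 (1296, 1301 and 1286 CPM against 1237, 1217 and 1206 CPM) did not overlap between these groups either. Their differences of 0.15 and 0.08 were nevertheless not called, with edgeR adjusted p values of 0.0722 and 0.0736. Scd2 passed without LacZ replicate 1 (edgeR adjusted p = 0.045), and Fads1 when only these 2 groups were fitted (edgeR adjusted p = 0.0494). Acaca (-0.10), Fasn (-0.04), Me1 (0.02) and Elovl6 (-0.11) were not called, though the groups did not overlap in Elovl6. Acaca passed at -0.17 without JMJD1A(WT) replicate 2 (edgeR adjusted p = 0.0165).

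The mutant was also set against LacZ, a contrast whose libraries all stand in one or the other of the preceding contrasts. Of the 10 genes 1 was lower, Elovl6, and 0 were higher, while 4.46% of all genes tested were lower and 9.24% were called in either direction. At an unadjusted p under 0.05 edgeR had 3 lower and 3 higher, a looser threshold than that of these shares. No share of all genes is given for it. DESeq2 called 1 lower and 0 higher. Elovl6 was at 68.18, 73.24 and 73.16 CPM with JMJD1A(H1122A), below the LacZ libraries, with a difference of -0.18 (SE 0.0570, edgeR adjusted p = 0.0376). That call was lost without LacZ replicate 1, 2 or 3 (edgeR adjusted p = 0.0823, 0.113 and 0.0641) and without JMJD1A(H1122A) replicate 1, 2 or 3 (0.219, 0.061 and 0.0606). For Srebf1 (0.01, 95% interval -0.08 to 0.11) and Scd1 (-0.11, interval -0.21 to -0.01) the mutant was not called against LacZ, with edgeR adjusted p values of 0.908 and 0.183. Without LacZ replicate 1 Fasn was called higher with the mutant, by 0.20 (edgeR adjusted p = 0.000409), against 0.12 and an adjusted p of 0.226 with all libraries. Adipocyte markers did differ in this contrast, with 7 of the 9 tested lower with the mutant (median log2 fold change -1.05). Their part was not tested.

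Both sets of libraries were then put in one fit to set the rescue levels against the cells without a second construct. These contrasts span lines that differ in a second infection and selection, and that difference and the effect of the construct cannot be told apart. LacZ cells differed from sh-Jmjd1a cells in 1 of the 10 genes, with Elovl6 higher by 0.43 on the log2 scale (SE 0.0573, edgeR adjusted p = 3.95e-07), where 3.62% of the 12758 genes tested were higher. None of the 10 was lower, neither at an unadjusted p under 0.05 in edgeR (0 genes) nor in DESeq2 (0 genes). Against sh-Empty, JMJD1A(WT) cells had 6 of the 10 genes lower and 1 higher, with 22.8% of all genes lower and 22.8% higher. Acly (-1.36), Scd1 (-0.99), Scd2 (-0.57), Fasn (-0.51), Elovl6 (-0.41) and Srebf1 (-0.37) were lower on the log2 scale and Fads1 (0.37) was higher. Acaca (-0.04), Me1 (-0.09) and Fads2 (-0.08) were not called. Markers moved in these contrasts as well. Against sh-Empty 8 of 9 adipocyte markers tested were lower and 8 of 10 preadipocyte and fibroblast markers higher in JMJD1A(WT) cells. In LacZ against sh-Jmjd1a cells 5 of 9 adipocyte markers were higher. Of the 10 preadipocyte and fibroblast markers 3 were higher there, the collagen genes Col1a1, Col1a2 and Col3a1, and 3 were lower. The part of these markers was not tested. Kdm3a was 9.72-fold higher in JMJD1A(WT) than in sh-Empty cells.

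Whether the rise with JMJD1A(WT) over LacZ equalled the fall on knockdown was tested in that fit as the rise minus the fall. For 7 of the 10 genes the rise was smaller than the fall, and for Fads1 the value was positive, because its rise on knockdown of 0.37 stood beside -0.01 with JMJD1A(WT). Across all genes 15.7% had a negative and 17% a positive value by the same call. The shortfall was 1.43 on the log2 scale for Acly (SE 0.0614), 1.02 for Scd1 (SE 0.0657), 0.84 for Elovl6 (SE 0.0777), 0.62 for Scd2, 0.54 for Fasn, 0.43 for Srebf1 and 0.24 for Me1. For Elovl6 the LacZ level was already 0.43 above sh-Jmjd1a, and the JMJD1A(WT) level was 0.41 below sh-Empty. Adjusted p values in edgeR ran from 6.43e-24 (Acly) to 0.0176 (Me1), and the call of Me1 was lost without JMJD1A(WT) replicate 1 (adjusted p = 0.0554). Acaca (-0.07) and Fads2 (-0.08) were not called. In the same test 8 of 9 adipocyte markers had a negative value (median -0.63 over the 9) and 8 of 10 preadipocyte and fibroblast markers a positive one, and their part was not tested.

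**Figure D4:**
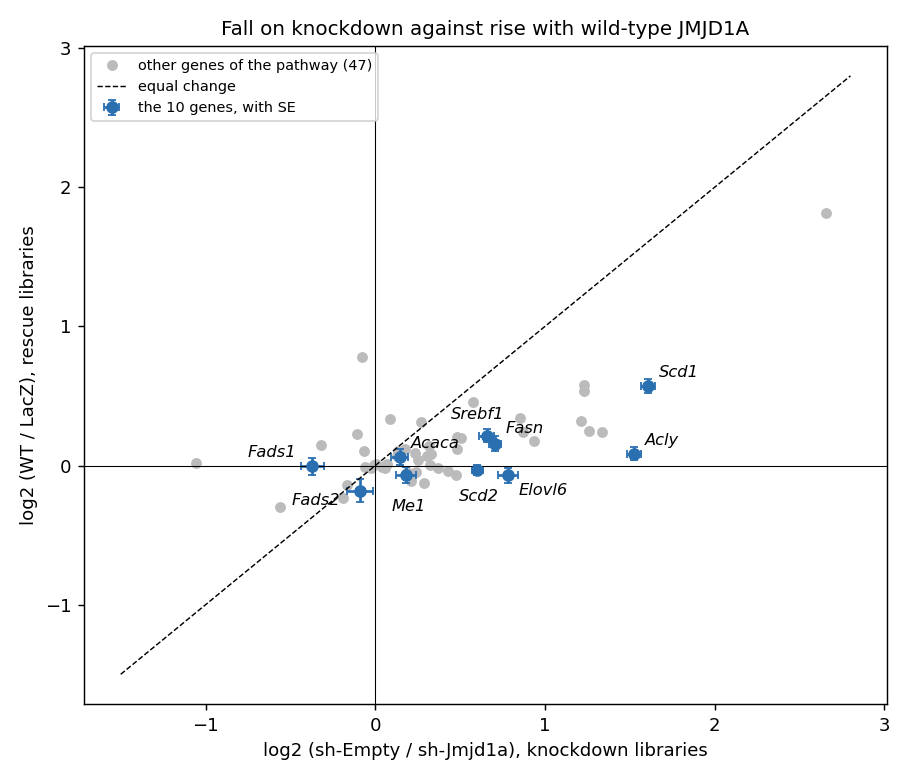
Log2 of sh-Empty over sh-Jmjd1a in the knockdown libraries (horizontal axis) against log2 of JMJD1A(WT) over LacZ in the rescue libraries (vertical axis), for the 10 genes in blue with SE bars and 47 other genes of the pathway in grey. The dashed line marks equal change; Scd1 lies at 1.61 and 0.57, Acly at 1.52 and 0.09.

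Other genes of the pathway were counted in lists chosen by function. Among 15 regulators of SREBP and of lipogenesis 14 could be tested, and on knockdown 6 were lower (Insig1, Insig2, Mlx, Nr1h2, Nr1h3 and Thrsp) and 1 was higher (Mid1ip1). The median log2 fold change of the list was -0.04, and the shares over all genes, 23.9% lower and 22.3% higher, apply to this list and the following ones. Insig1, which retains SREBP in the endoplasmic reticulum and is itself an SREBP target, fell by 0.57 on the log2 scale, and Nr1h3, the sterol receptor LXR alpha, fell by 1.23. JMJD1A(WT) cells exceeded LacZ cells in both genes, by 0.45 for Insig1 and 0.58 for Nr1h3. Mutant cells were below JMJD1A(WT) cells in both, with a log2 difference of -0.73 in each case. Insig1 read 53.81, 56.19 and 51.51 CPM with JMJD1A(WT), beside 47.66 to 50.42 CPM in the sh-Empty libraries, a log2 difference of 0.12 with a 95% interval of -0.01 to 0.25 that was not called (edgeR adjusted p = 0.145). Thrsp, the lipogenic Spot 14 gene, had only 2 to 76 counts per library and followed the same calls. With JMJD1A(WT) against LacZ these were the 3 higher genes of the list, beside 4.98% of all genes. In that contrast 0 were lower (0 at an unadjusted p under 0.05 in edgeR, 0 in DESeq2). Srebf2 (-0.01), Scap (0.06) and Mbtps1 (-0.07), the paralogue, the escort and a protease of SREBP, were not called on knockdown. Mlxipl, the gene of ChREBP, had a count in 1 sh-Empty library only and was not tested.

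Among 11 genes that supply citrate, acetyl-CoA or NADPH, all tested, 10 were lower on knockdown and 0 were higher (0 at an unadjusted p under 0.05 in edgeR, 0 in DESeq2), with a median log2 fold change of -0.48. They included the citrate carrier Slc25a1 (-0.48), pyruvate carboxylase Pcx (-0.87), cytosolic isocitrate dehydrogenase Idh1 (-0.85) and the pentose phosphate enzymes G6pdx (-0.33), Pgd (-0.48) and Taldo1 (-1.21), all on the log2 scale. Acss2, which makes acetyl-CoA from acetate, was at -0.23 and not called. With JMJD1A(WT) against LacZ 5 of the 11 were higher, Pcx (0.24), Idh1 (0.34), Aco1 (0.18), Tkt (0.20) and Taldo1 (0.32), beside 4.98% of all genes. With JMJD1A(H1122A) against JMJD1A(WT) 7 were lower in edgeR and 6 in DESeq2, beside 11.7% of all genes. Neither G6pdx nor Pgd was called in those contrasts, with 0.08 and -0.07 for JMJD1A(WT) against LacZ.

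In the 8 genes of malonyl-CoA control and mitochondrial synthesis 2 were lower on knockdown, Mlycd (-0.32) and Mecr (-0.43), a share close to that of all genes, and DESeq2 called 1. In this list 0 were called with JMJD1A(WT) against LacZ (0 at an unadjusted p under 0.05 in edgeR, 0 in DESeq2). Acacb, the carboxylase that controls fatty acid oxidation, was at 0.19 on knockdown and not called. With JMJD1A(H1122A) 1 of the 8 genes, Mcat, was lower than with JMJD1A(WT), beside 11.7% of all genes. Its difference was -0.25 (edgeR adjusted p = 0.0482), a call DESeq2 did not make.

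Among 19 other elongation and desaturation genes 14 were tested on knockdown, of which 8 were lower and 1 was higher, with a median log2 fold change of -0.18. Hacd2, a dehydratase of the elongation cycle (-1.34), Elovl1, an elongase of very long chains (-1.26), and Hsd17b12, a reductase of the cycle (-0.51), were lower. The higher gene was Elovl5, which lengthens the products of the Fads2 and Fads1 desaturases. Elovl5 stood at 90.32, 91.07 and 92.00 CPM in sh-Empty and at 133.3, 135.6 and 137.5 CPM in sh-Jmjd1a, 0.56 higher on the log2 scale (edgeR adjusted p = 1.51e-10). It was lower with JMJD1A(WT) (109.5, 112.4 and 116.5 CPM) than with LacZ (132.3, 145.6 and 138.3 CPM), by a log2 difference of -0.29 (edgeR adjusted p = 9.59e-06). With JMJD1A(H1122A) it was at 156.9, 161.1 and 158.3 CPM, higher than with JMJD1A(WT) by 0.49 and than with LacZ by 0.19 (edgeR adjusted p = 2.96e-11 and 0.00522). In Elovl5 the JMJD1A(WT) libraries thus lay between sh-Empty and LacZ, as they did in Scd1 in the opposite direction. Unlike Elovl5, Scd1 was not called between the mutant and LacZ (edgeR adjusted p = 0.183). In the rescue libraries 15 genes of the list were tested. With JMJD1A(WT) against LacZ 5 were higher, beside 4.98% of all genes, and Elovl5 alone was lower. With JMJD1A(H1122A) against JMJD1A(WT) 4 were lower and 3 higher, beside 11.7% and 12.1% of all genes. Elovl2 had no count in any library.

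The cell type markers were checked as lists. Of 10 adipocyte markers 9 were tested, and 7 of them were lower in mutant than in LacZ cells, beside 4.46% of all genes. Fabp4, a fatty acid carrier of fat cells, for example fell by 1.87 on the log2 scale on knockdown and was 1.25 higher with JMJD1A(WT), while leptin (Lep) had at most 0.0263 CPM as a group mean. Summed preadipocyte and fibroblast markers were at 10090 to 10240 CPM in sh-Empty and at 18690 to 24490 CPM in the other 4 groups, led by collagen genes, and 7 of 9 tested were higher and 1 lower on knockdown. Markers of macrophages (at most 3.999 CPM summed), endothelium (at most 1.55), hepatocytes (at most 0.995, Alb at 0) and skeletal muscle (2.21 to 17.1, Myod1 and Myog at 0) were low, and the highest muscle sums, 14.6 to 17.1 CPM, came from Des with JMJD1A(WT).

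The genes most like Srebf1 across the 15 libraries, by Pearson's r on log2 CPM among 10221 genes of at least 5 CPM on average, were Acadm (0.978), Loxl1 (0.973), Gnpat (0.973), Lxn (0.973) and Slc9a3r1 (0.972). Among the 10 genes Scd1 (0.964), Fasn (0.954) and Acly (0.934) came nearest, then Scd2 (0.890), Elovl6 (0.840), Acaca (0.588) and Me1 (0.438), whereas Fads2 (-0.467) and Fads1 (-0.811) ran the other way. The sh-Empty libraries stand apart from the rest in these genes and the 15 points fall into groups, so r describes the order of the groups rather than separate samples. Over the 12 hairpin libraries alone r with Srebf1 was 0.805 for Scd1, 0.743 for Acly, 0.730 for Fasn, 0.442 for Elovl6, 0.363 for Acaca, 0.092 for Scd2, -0.028 for Me1, -0.156 for Fads1 and -0.542 for Fads2. The 5 genes outside the group were then at 0.884 (Acadm), 0.861 (Loxl1), 0.845 (Gnpat), 0.846 (Lxn) and 0.853 (Slc9a3r1).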

How the data were processed

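RNA-seq of 15 libraries of 3T3-L1 cells on day 2 was analysed, 3 for each of 5 groups taken from the sample titles. The authors filtered reads (fastp), placed them on mm9 (HISAT2), assigned them to genes (featureCounts) and deposited whole counts for each Entrez Gene number, not normalized. The labels and the study's methods name different NEBNext Ultra kits, and the strand setting of the counting is not given in the sources used here. Overlap on the opposite strand covers 0.157% of the exon bases of Acaca and 0.839% of those of Me1, and 1.12% of Scd2 is shared with a gene on the same strand.

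Symbols came from a RefSeq table (24191 of 26301 gene numbers matched), and coordinates and exon lengths from GENCODE M1 on NCBIM37. Promoters are RefSeq sequences of GRCm38.p6 with the coordinates of that build. Counts were fitted in edgeR 4.0.16 (R 4.3.3, limma 3.58.1, statmod 1.5.0) after filterByExpr with a minimum count of 10 and TMM scaling, with robust quasi-likelihood dispersions. The 6 knockdown libraries, the 9 rescue libraries and all 15 were fitted apart, with 12272, 12557 and 12758 genes tested. Levels between sets use TMM factors over the 15 libraries and a prior count of 2 for correlations. DESeq2 1.42.0, other filters and scalings, a replicate block and leaving out each library were tried.

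Total counts of 11437058 to 25523148 put 374 to 801 counts on Fads2, the gene of the 10 with the fewest, and 13956 to 30960 on Scd2. Genes named are the 10, Kdm3a, genes of the wider lists and the 5 genes most correlated with Srebf1. The genes and lists were chosen with earlier results of these data known. Sequences of proteins were not analysed here.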

Additional observations from a re-analysis of the deposited data

Results flagged for a closer look

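The fall on knockdown and the rise with JMJD1A(WT) over LacZ were unequal in 8 of the 10 genes by the test of the difference itself, in one edgeR fit of all 15 libraries. Over all genes tested 15.7% had a negative and 17% a positive value by the same call. Me1 (-0.07), Scd2 (-0.03) and Elovl6 (-0.07) had no rise with JMJD1A(WT), and Fads1 was higher on knockdown, not lower. The rise minus the fall, on the log2 scale, was -0.43 for Srebf1, -1.43 for Acly, -0.54 for Fasn, -0.24 for Me1, -1.02 for Scd1, -0.62 for Scd2, -0.84 for Elovl6 and 0.38 for Fads1. The 2 contrasts come from different libraries, and the rescue lines carry a second construct. In Elovl6 LacZ cells were already 0.43 above sh-Jmjd1a cells.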

How the results depend on the processing

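Without any filter, with the replicate number as a block and at an adjusted p under 0.01, the count of the 10 genes called between JMJD1A(H1122A) and LacZ was 2, 2 and 0 in place of 1, and 0 to 1 with a library left out. Deviations of same-numbered libraries correlated at -0.044 to 0.032 in the knockdown set and -0.015 to 0.054 in the rescue set. For libraries of different number the ranges were -0.04 to 0.065 and -0.057 to 0.023. All these correlations were small, but in the rescue set those of same-numbered libraries reached higher, so some pairing there is not excluded. With the replicate block the other counts of called genes changed by at most 1.5 times, and Fasn against LacZ with either construct and Scd2 between the mutant and JMJD1A(WT) were gained (edgeR adjusted p = 0.000198, 0.00896 and 0.0299). Leaving out one library gave 7 to 9 called genes on knockdown, 2 to 3 for JMJD1A(WT) against LacZ, 4 to 5 for JMJD1A(H1122A) against JMJD1A(WT) and 7 to 8 for the difference. Of 1488 values of single genes under the alternatives 1434 kept their direction and call, 19 lost a call, 14 gained one and 21 changed sign, all of them differences near 0 that were called neither before nor after. Between LacZ and sh-Jmjd1a, Fads1 was 0.006 without a filter and Fads2 -0.001 with at least 10 counts in every library. With one library left out the log2 differences there ran from -0.023 to 0.075 (Acaca), -0.054 to 0.083 (Fasn), -0.064 to 0.064 (Fads1) and -0.064 to 0.095 (Fads2). They ran from -0.081 to 0.05 for Fads1 between JMJD1A(WT) and LacZ (0.00 with the replicate block), -0.016 to 0.046 for Me1 between the mutant and JMJD1A(WT), -0.02 to 0.047 for Srebf1 and -0.09 to 0.008 for Acaca between the mutant and LacZ, and -0.089 to 0.023 for Acaca between JMJD1A(WT) and sh-Empty. Acaca on knockdown was also lost in the fit of all libraries (adjusted p = 0.0523, edgeR). Precision is lowest for Fads2, with 374 to 801 counts per library.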
